A study of Mus musculus with 6 samples.

Results

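The 43 genes described here code for the machinery of mitosis: kinases and cyclins, the chromosomal passenger complex, the spindle assembly checkpoint, the centromere and kinetochore, kinesins, condensin and the proteins of the spindle and midzone. They were chosen by gene symbol for these roles and fall into 7 classes. All 43 occur in the data, which hold 26216 gene names, and all 43 were among the 13108 names with the highest mean level, which were tested. RNA-seq was performed on LT/ST-HSCs, the long- and short-term hematopoietic stem cells of the bone marrow, sorted as lineage-negative, Annexin V-negative, sca1+, c-kit+, CD150+ and CD48- cells. The comparison asks how the loss of LTβR, a receptor of the TNF receptor superfamily, alters gene expression in these cells. One group consisted of 3 replicates of *Ltbr*-/- cells (CD45.2), which carry a germline deletion in *Ltbr*, and the other of 3 replicates of Ly5.1 cells (CD45.1), the wild-type control. Both came from mixed chimeras at week 6, in which LSKs (lineage-negative, sca1+, c-kit+ progenitors) of both donors had been given together to lethally irradiated Ly5.1/Ly5.2 recipients. Cells of chimeras (n = 6) were pooled into 3 biological replicates, so that the spread between replicates is a spread between pools. The *Ltbr*-/- donors were 13 weeks old in replicate 1, 10 weeks in replicate 2 and 10 to 13 weeks in replicate 3, and the Ly5.1 donors 7 to 13 weeks in each replicate. Donor age and the CD45 allele therefore cannot be told apart from the *Ltbr* genotype.

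The deposited value of a gene in a sample is a signal. It was read here from its values as 2 to the power of a regularized log. All differences below are differences of mean log2 signal, *Ltbr*-/- minus Ly5.1. The targeted gene *Ltbr* had a signal of 24.2, 26.4 and 23.1 in *Ltbr*-/- cells and of 564, 549 and 522 in Ly5.1 cells (log2 difference −4.47, SE 0.08, limma with Benjamini-Hochberg adjusted p = 2.15e-32), as the labels say. Marker genes are called higher or lower at an adjusted p under 0.05 (limma, Benjamini-Hochberg). Over all tested genes, 10.6% were higher and 4.18% lower by this threshold. All 14 HSC markers were measured above the level filter, with 1 higher and 2 lower. Their summed signal ranged from 19423 to 20117 in *Ltbr*-/- cells and from 20821 to 21267 in Ly5.1 cells. Markers of other bone marrow cells differed between the genotypes as well. Of 10 granulocyte genes, 9 were lower in *Ltbr*-/- cells. The summed signal of the 10 ranged from 43994 to 44555 against 57623 to 62324 in Ly5.1 cells. The summed signal of 7 mast cell and basophil genes ranged from 7526 to 8097 in *Ltbr*-/- cells and from 4134 to 4721 in Ly5.1 cells, with 2 genes higher and 1 lower. The sum of 8 erythroid genes ranged from 4959 to 5332 and from 3563 to 3884, with 2 higher and 0 lower. Of 6 tested monocyte and macrophage genes 2 were higher and 1 lower, and the sums over the 7 measured ones overlapped (6021 to 6765 and 6625 to 7159). Of 3 multipotent progenitor genes 0 were higher and 2 lower, with sums of 2973 to 3316 and 3797 to 4002. The B cell markers summed to 1401 to 1535 and 2255 to 2419, with 1 higher and 2 lower of 4 tested, and the megakaryocyte markers to 13849 to 14640 and 11732 to 13039, with 1 higher and 1 lower of 5 tested. The one T cell gene tested did not pass, and the B cell markers *Ms4a1*, *Ebf1* and *Pax5* and the T cell markers *Cd3e* and *Cd8a* had a signal under 8 in all samples. The part of these cell types in the results below was not tested.

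In mitosis, Cdk1 bound to cyclin B drives cells into division, condensin compacts the chromosomes, and kinetochores assembled on centromeres that hold the histone variant CENP-A attach them to the microtubules of the spindle. The spindle assembly checkpoint holds the cell in metaphase by keeping Cdc20, the activator of the anaphase-promoting complex, in check until every kinetochore is attached. The complex then marks securin and cyclin B for degradation, the chromatids separate, and the midzone of the spindle guides cytokinesis. Most HSCs rest outside the cell cycle, and many mitosis genes are transcribed mainly in G2 and M phase, so that their RNA levels in a sorted population are commonly read as a mark of division. In a bulk sample, however, fewer dividing cells and less RNA per cell cannot be told apart.

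The promoters of these genes share sequence elements. Transcription late in the cell cycle is known to act through the cell cycle genes homology region (CHR), most often TTTGAA, to which MuvB complexes bind, and through CCAAT boxes, to which NF-Y binds. RefSeq promoter windows (GRCm38.p6, 250 bases before to 50 bases after the start) were matched for 36 of the 43 genes, the others being *Smc4*, *Ccna2*, *Spc24*, *Aurkb*, *Tpx2*, *Incenp* and *Kif20a*. A gene was counted when any of its windows held the element. TTTGAA was found on either strand in 28 of the 36 genes (77.8%), against 14.5% of 10097 tested genes. CCAAT was found in 27 (75%), against 43.3%, and the other form of the CHR, TTCGAA, in 3 (8.33%), against 2.51%. A CHR of either form together with CCAAT was present in 25 (69.4%), against 7.2% of the tested genes. All 7 genes that passed the test between genotypes had TTTGAA, as did 21 of the other 29 (72.4%). The stretches of these 7 genes are shown because they carry the elements shared by genes that rose and genes that fell. Each runs 5′ to 3′ on the strand of the gene, from 150 bases before the start to 30 bases from it, and capitals mark TTTGAA or CCAAT, which read TTCAAA or ATTGG where they lie on the opposite strand. Genes with a higher level in *Ltbr*-/- cells were *Cdc20* (chr4:118437314-118437493, minus strand), *Cenpa* (chr5:30666736-30666915, plus strand), *Ccnb2* (chr9:70421525-70421704, minus strand) and *Bub3* (chr7:131560220-131560399, plus strand):
Cdc20: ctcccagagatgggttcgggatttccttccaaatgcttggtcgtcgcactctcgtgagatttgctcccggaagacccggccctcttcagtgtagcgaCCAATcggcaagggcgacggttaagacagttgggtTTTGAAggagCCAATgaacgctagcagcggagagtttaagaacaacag
Cenpa: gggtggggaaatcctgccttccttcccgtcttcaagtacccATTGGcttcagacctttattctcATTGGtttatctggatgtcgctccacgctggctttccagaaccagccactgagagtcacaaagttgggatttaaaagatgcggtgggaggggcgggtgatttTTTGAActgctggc
Ccnb2: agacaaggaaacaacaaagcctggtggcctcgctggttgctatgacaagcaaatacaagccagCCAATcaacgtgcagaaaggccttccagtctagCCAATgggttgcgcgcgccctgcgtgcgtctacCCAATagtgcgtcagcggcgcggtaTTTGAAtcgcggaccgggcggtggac
Bub3: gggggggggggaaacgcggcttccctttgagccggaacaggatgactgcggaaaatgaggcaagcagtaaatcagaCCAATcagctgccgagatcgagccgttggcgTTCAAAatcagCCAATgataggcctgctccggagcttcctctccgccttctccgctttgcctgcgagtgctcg
Genes with a lower level were *Kif11* (chr19:37376232-37376411, plus strand), *Kif4* (chrX:100625915-100626094, plus strand) and *Smc2* (chr4:52439071-52439250, plus strand):
Kif11: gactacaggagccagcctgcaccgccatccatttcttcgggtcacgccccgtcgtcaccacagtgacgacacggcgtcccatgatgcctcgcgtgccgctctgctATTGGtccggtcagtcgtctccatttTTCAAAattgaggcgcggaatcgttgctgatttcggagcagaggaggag
Kif4: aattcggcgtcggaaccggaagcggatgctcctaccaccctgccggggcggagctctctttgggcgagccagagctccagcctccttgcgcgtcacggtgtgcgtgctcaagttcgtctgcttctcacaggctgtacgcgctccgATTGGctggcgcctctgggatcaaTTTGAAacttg
Smc2: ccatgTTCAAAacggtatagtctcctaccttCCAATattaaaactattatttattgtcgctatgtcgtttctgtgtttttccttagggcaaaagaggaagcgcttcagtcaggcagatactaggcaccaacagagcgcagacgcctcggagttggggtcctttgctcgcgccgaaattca
TTTGAA began close to the start in *Cdc20* (position −18), *Cenpa* (17), *Ccnb2* (5) and *Kif4* (20), and on the opposite strand in *Bub3* (−43) and *Kif11* (−19). In *Smc2* it was found on the opposite strand at −145 and at 27, the latter running past the end of the printed stretch. A match is a run of letters and not a proven site.

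Of the 43 mitosis genes, 7 (16.3%) differed between the genotypes at an adjusted p under 0.05, against 14.8% of all tested genes. In *Ltbr*-/- cells, 4 genes rose, namely *Cdc20*, *Cenpa*, *Ccnb2* and *Bub3*, and 3 fell, namely *Smc2*, *Kif4* and *Kif11*. The 4 that rose were 9.3% of the mitosis genes, against 10.6% of all tested genes, and the 3 that fell 6.98%, against 4.18%. The share past the test thus lay near that of all tested genes. None of the 43 reached a fold of 1.5 at this adjusted p, which 2.78% of all tested genes did, and 2 passed it with a log2 difference of at least 0.32, against 8.53%. The median difference over the 43 genes was 0.03, with 24 above 0, 19 below and 15 at an unadjusted p under 0.05, and −0.01 over all tested genes. The typical size of a difference was also that of all tested genes, with a median absolute log2 difference of 0.0967 against 0.0966. The median SD of log2 signal within a genotype was 0.0881 for the mitosis genes and 0.0929 for all tested genes. In 18 genes (41.9%) all samples of one genotype lay above all samples of the other, against 30.4% of all tested genes. *Ltbr*-/- cells were the higher group in 12 of these (27.9%, against 17% of all tested genes) and the lower group in 6 (14%, against 13.5%). A 3 against 3 exact permutation test of a single gene cannot give a p below 0.1.

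**Figure D1:**
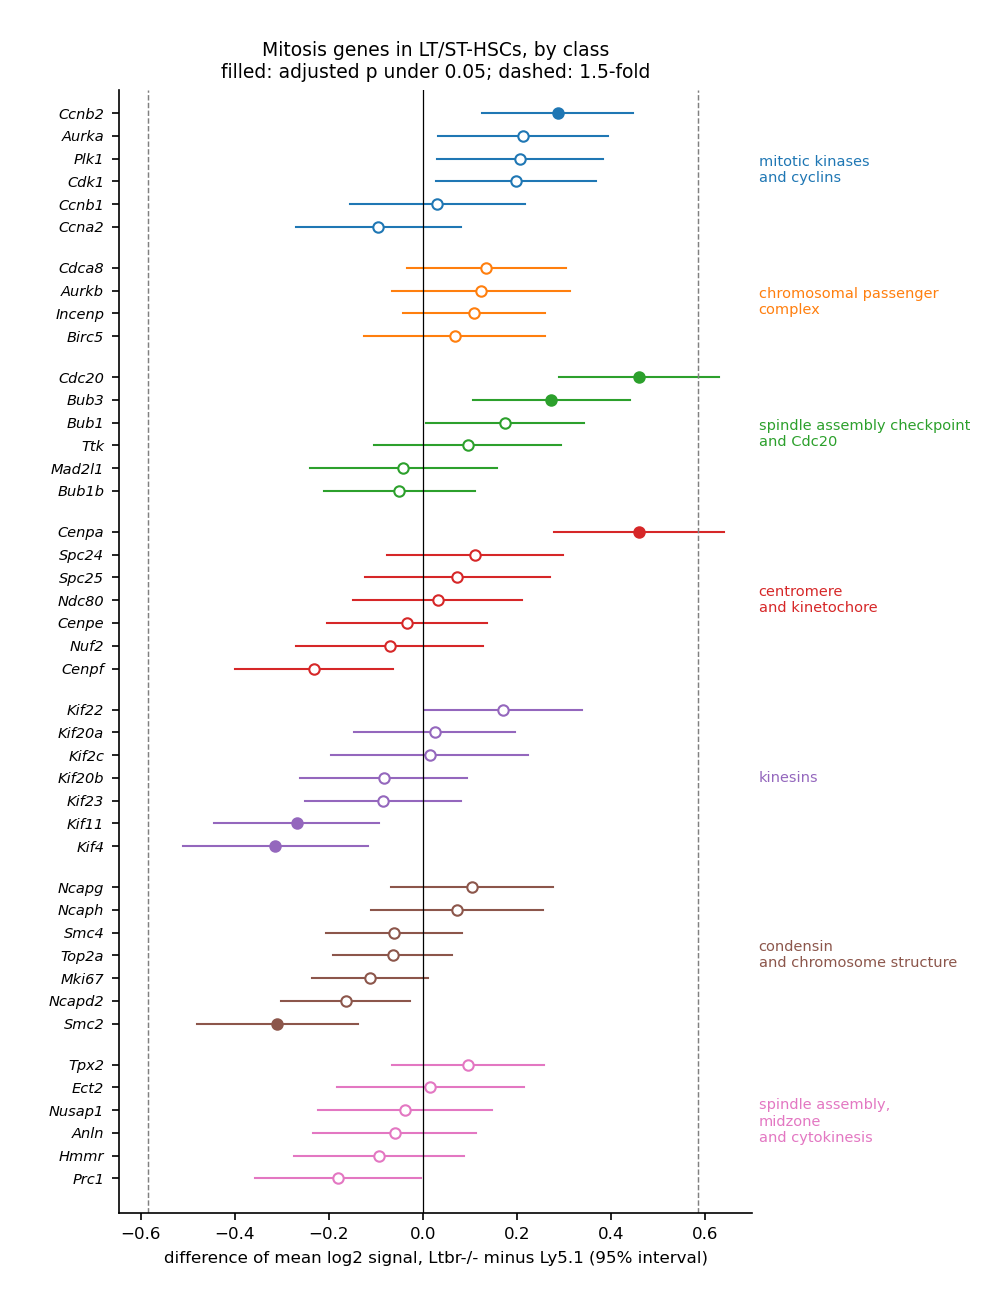
Difference of mean log2 signal (*Ltbr*-/- minus Ly5.1, horizontal axis) of each of the 43 mitosis genes with its 95% confidence interval from limma, grouped by class, with filled points for the 7 genes past an adjusted p of 0.05. The largest differences upwards were 0.46 (*Cdc20*, *Cenpa*) and downwards −0.31 (*Kif4*, *Smc2*), and most intervals include 0.

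The mitotic kinases and cyclins were mostly above 0, with a median difference of 0.20 over 6 genes, of which 1 rose and 0 fell. *Ccnb2*, which codes for a B-type cyclin that activates Cdk1, had a signal of 2834, 2948 and 3115 in *Ltbr*-/- replicates 1 to 3 and of 2287, 2543 and 2462 in Ly5.1 replicates 1 to 3. All *Ltbr*-/- samples lay above all Ly5.1 samples. The means were 2965 ± 141 and 2431 ± 131 (SD, n = 3 each), a 1.22-fold higher level (log2 difference 0.29, SE 0.08, limma with Benjamini-Hochberg adjusted p = 0.00992). Without *Ltbr*-/- replicate 3 the adjusted p of *Ccnb2* was 0.0785, and without Ly5.1 replicate 1 it was 0.0667. The spindle pole kinase *Aurka* (0.21, adjusted p = 0.107), the polo-like kinase *Plk1* (0.21, adjusted p = 0.113) and the master kinase *Cdk1* (0.20, adjusted p = 0.112) did not pass the test in the limma fit, although their groups did not overlap. *Cdk1* passed after a correction for transcript length and GC content (0.25, adjusted p = 0.0291). The other B-type cyclin gene, *Ccnb1*, differed by 0.03, and 34.9% of its read-length windows are shared with other genes, so that its reads may be split between them. *Ccna2*, coding for the cyclin of S and G2 phase, was the one gene of the class below 0. Its signal was 1674, 1751 and 1685 in *Ltbr*-/- cells and 1608, 1886 and 1981 in Ly5.1 cells, with overlapping groups (−0.09, adjusted p = 0.525).

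None of the 4 genes of the chromosomal passenger complex, which corrects faulty attachments at the centromere and then moves to the midzone, passed the test (limma), and 0 had an unadjusted p under 0.05. All 4 were above 0, with a median of 0.12. The largest difference was that of *Cdca8*, which codes for Borealin, with a signal of 1651, 1595 and 1670 in *Ltbr*-/- cells and 1550, 1519 and 1409 in Ly5.1 cells. The groups did not overlap, but the difference of 0.14 did not pass the test (adjusted p = 0.301). *Aurkb*, the kinase of the complex, differed by 0.12 (adjusted p = 0.417), the scaffold *Incenp* by 0.11 and *Birc5* (Survivin) by 0.07. The value of *Aurkb* rested on Ly5.1 replicate 3, in which its signal was 1016 against 1326 and 1298 in the other Ly5.1 replicates and 1280 to 1337 in *Ltbr*-/- cells. Without this replicate the difference was 0.0014.

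Among the genes of the spindle assembly checkpoint and its target Cdc20, 2 of 6 rose and 0 fell, with a median of 0.14. *Cdc20* (chromosome 4, 118432901 to 118437343) had a signal of 2378, 2487 and 2605 in *Ltbr*-/- cells and of 1831, 1639 and 1975 in Ly5.1 cells. The groups were clearly apart, with means of 2490 ± 113 and 1815 ± 169 (SD, n = 3 each). This was a 1.37-fold higher level (log2 difference 0.46, SE 0.08, limma with Benjamini-Hochberg adjusted p = 8.30e-05). *Bub3*, which brings the checkpoint kinases to the kinetochore, had a signal of 2402, 2683 and 2742 in *Ltbr*-/- cells and of 2121, 2020 and 2335 in Ly5.1 cells. Its groups did not overlap either, although *Ltbr*-/- replicate 1 lay only just above Ly5.1 replicate 3. The difference was 1.21-fold (0.27, SE 0.08, limma with Benjamini-Hochberg adjusted p = 0.0202). The adjusted p of *Bub3* was 0.0929 without *Ltbr*-/- replicate 2, 0.123 without *Ltbr*-/- replicate 3, 0.0624 without Ly5.1 replicate 1 and 0.0977 without Ly5.1 replicate 2. The other checkpoint genes did not pass the test. The difference was 0.18 for the kinase gene *Bub1*, 0.10 for *Ttk*, the gene of the kinase Mps1, and −0.04 for *Mad2l1*, whose protein Mad2 binds Cdc20. *Bub1b*, coding for the Cdc20 inhibitor BubR1, had a signal of 3029, 2583 and 2951 in *Ltbr*-/- cells and of 2939, 2988 and 2915 in Ly5.1 cells, with replicate 2 of *Ltbr*-/- below all others (−0.05, adjusted p = 0.742).

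**Figure D2:**
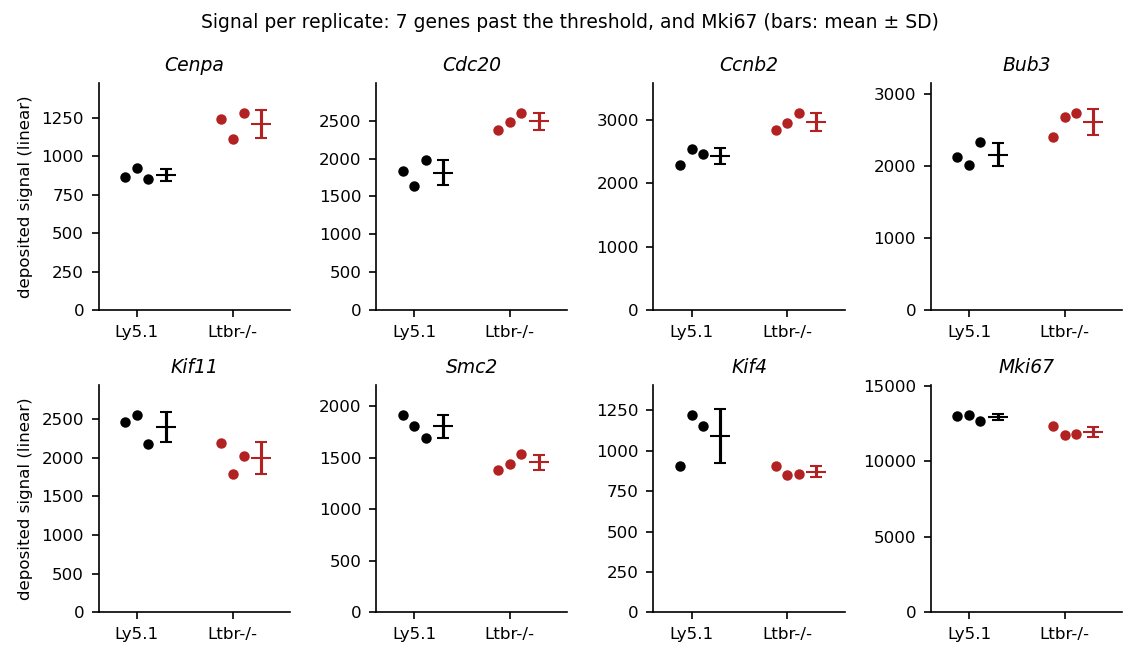
Deposited signal (linear vertical axes starting at 0) of the 7 mitosis genes past an adjusted p of 0.05 and of *Mki67* in the 3 Ly5.1 (black) and 3 *Ltbr*-/- (red) replicates, with the mean and SD of each group. *Cenpa*, *Cdc20*, *Ccnb2* and *Bub3* are higher in each *Ltbr*-/- replicate, *Smc2* is lower in each, and the groups of *Kif11* and *Kif4* overlap.

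Of 7 centromere and kinetochore genes, 1 rose and 0 fell, and their median was 0.03. The gene that rose was *Cenpa* (chromosome 5, 30666877 to 30674837), coding for the histone H3 variant that marks the centromere. Its signal was 1237, 1108 and 1282 in *Ltbr*-/- cells and 862, 923 and 849 in Ly5.1 cells. The groups did not overlap, and the means were 1209 ± 90.03 and 878 ± 39.3 (SD, n = 3 each). *Cenpa* was thus 1.38-fold higher (0.46, SE 0.09, limma with Benjamini-Hochberg adjusted p = 0.000184). *Cenpa* and *Cdc20* were the only 2 of the 7 genes past the test that stayed past it in each of the 17 alternative fits described in the closing section. The 4 genes of the Ndc80 complex, *Ndc80*, *Nuf2*, *Spc24* and *Spc25*, which binds microtubules at the outer kinetochore, had a median of 0.05, none passed the test, and 0 had an unadjusted p under 0.05. *Cenpe*, the gene of the kinetochore kinesin, differed by −0.03. *Cenpf*, coding for a large protein of the outer kinetochore, lay on the other side, with a signal of 1587, 1470 and 1635 in *Ltbr*-/- cells and of 1891, 1765 and 1845 in Ly5.1 cells. All *Ltbr*-/- samples were below all Ly5.1 samples, yet the difference of −0.23 lay just short of the threshold (limma with Benjamini-Hochberg adjusted p = 0.0556), and it passed in 6 of the 17 alternative fits.

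The kinesins, motor proteins that walk along or take apart microtubules, had a median of −0.08, with 0 of 7 higher and 2 lower. *Kif11*, coding for the kinesin Eg5 that pushes the spindle poles apart, had a signal of 2185, 1784 and 2024 in *Ltbr*-/- cells and of 2468, 2555 and 2182 in Ly5.1 cells. *Kif4*, coding for a kinesin of the chromosome arms and the midzone, had a signal of 908, 849 and 855 in *Ltbr*-/- cells and of 902, 1221 and 1149 in Ly5.1 cells. In both genes the groups overlapped through 1 sample of each genotype. The mean signal of *Kif11* was 1998 ± 202 and 2402 ± 195 (SD, n = 3 each), 1.20-fold lower in *Ltbr*-/- cells (−0.27, SE 0.09, limma with Benjamini-Hochberg adjusted p = 0.0315). That of *Kif4* was 871 ± 32.3 and 1091 ± 167, 1.24-fold lower (−0.31, SE 0.10, limma with Benjamini-Hochberg adjusted p = 0.0235). With values corrected for transcript length and GC, the adjusted p was 0.0773 for *Kif11* and 0.0623 for *Kif4*. It was 0.0748 and 0.0670 when limma was run without a trend, and 0.0628 and 0.0522 with no filter on low values. For *Kif11* it was 0.235 and 0.0765 without *Ltbr*-/- replicate 2 or 3, and 0.102 and 0.137 without Ly5.1 replicate 1 or 2. For *Kif4* it was 0.0774 and 0.0908 without *Ltbr*-/- replicate 2 or 3, and 0.171 and 0.0770 without Ly5.1 replicate 2 or 3. *Kif22*, coding for a chromosome-bound kinesin, had the largest difference upwards, with a signal of 2281, 2574 and 2781 in *Ltbr*-/- cells and of 2263, 2250 and 2246 in Ly5.1 cells. Its groups were apart by a narrow gap, and the difference did not pass the test (0.17, adjusted p = 0.172). The others were *Kif20a* (0.03) and *Kif23* (−0.08), whose proteins act in cytokinesis, *Kif20b* (−0.08) and *Kif2c* (0.02), which codes for the microtubule depolymerase MCAK.

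Of 7 genes of condensin and chromosome structure, 0 rose and 1 fell, and the median was −0.06. *Smc2* (chromosome 4, 52439221 to 52488365), coding for an ATPase subunit of both condensin complexes, had a signal of 1387, 1444 and 1537 in *Ltbr*-/- cells and of 1917, 1809 and 1689 in Ly5.1 cells. All *Ltbr*-/- samples were below all Ly5.1 samples. The means were 1456 ± 75.99 and 1805 ± 114 (SD, n = 3 each), 1.24-fold lower in *Ltbr*-/- cells (−0.31, SE 0.08, limma with Benjamini-Hochberg adjusted p = 0.00934). Without *Ltbr*-/- replicate 1 the adjusted p of *Smc2* was 0.0569, and without Ly5.1 replicate 1 it was 0.0624. Its ATPase partner *Smc4* differed by −0.06, and of the other condensin I subunits *Ncapd2* differed by −0.16, *Ncaph* by 0.07 and *Ncapg* by 0.11. *Ncapg* had a signal of 1279, 1276 and 1370 in *Ltbr*-/- cells and of 1175, 1273 and 1202 in Ly5.1 cells, the largest difference upwards in the class (adjusted p = 0.461). *Ncapd2* lies 0.114 Mb from *Ltbr* on chromosome 6, and its groups did not overlap. *Mki67*, the gene of the proliferation marker Ki-67 that coats mitotic chromosomes, had the highest signal of the 43 genes. It was 12341, 11753 and 11821 in *Ltbr*-/- cells and 13026, 13085 and 12690 in Ly5.1 cells, with all *Ltbr*-/- samples below (−0.11, adjusted p = 0.232). *Top2a*, coding for the topoisomerase that untangles sister chromatids, differed by −0.06 (adjusted p = 0.556). The values of this class depended on the form of scaling. With each sample centred on the median of tested names, the class median was −0.0636 and *Mki67* differed by −0.111. Quantile normalization gave −0.44 for *Mki67* (adjusted p = 7.08e-07), −0.40 for *Ncapd2* (adjusted p = 1.06e-05), −0.39 for *Top2a* (adjusted p = 1.05e-05) and −0.21 for *Smc4* (adjusted p = 0.0291), and a class median of −0.34.

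None of the 6 genes of spindle assembly, midzone and cytokinesis passed the test (limma), 1 had an unadjusted p under 0.05, and their median was −0.05. *Tpx2*, coding for the spindle assembly factor that activates Aurora A, had a signal of 2562, 2919 and 2767 in *Ltbr*-/- cells and of 2598, 2672 and 2438 in Ly5.1 cells. *Prc1*, coding for the protein that bundles midzone microtubules, had a signal of 1078, 1208 and 1071 in *Ltbr*-/- cells and of 1228, 1320 and 1251 in Ly5.1 cells. The groups overlapped for *Tpx2* (0.10, adjusted p = 0.470) and did not for *Prc1* (−0.18, adjusted p = 0.174). The remaining differences were −0.09 for *Hmmr*, −0.06 for the anillin gene *Anln*, −0.04 for *Nusap1* and 0.02 for *Ect2*, the gene of the exchange factor that activates RhoA at the division site.

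The mitosis genes did not move as 1 block across samples. The mean deviation from a gene's own mean over the 6 samples was −0.0115, 0.00426 and 0.0495 in *Ltbr*-/- replicates 1 to 3 and −0.0156, 0.00421 and −0.0309 in Ly5.1 replicates 1 to 3. *Ltbr*-/- replicate 3 was the highest of the 6 samples in 13 of the 43 genes, and each other sample was the highest in 4 to 9. Among the *Ltbr*-/- samples alone, replicates 1 to 3 were the highest in 11, 9 and 23 genes and the lowest in 18, 18 and 7. Among the Ly5.1 samples alone, they were the highest in 15, 16 and 12 genes and the lowest in 14, 9 and 20. The lowest sample was Ly5.1 replicate 1 in 11 genes and *Ltbr*-/- replicate 2 in 10. The means of the genotypes were thus separated by less than the range of samples within the *Ltbr*-/- group.

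**Figure D3:**
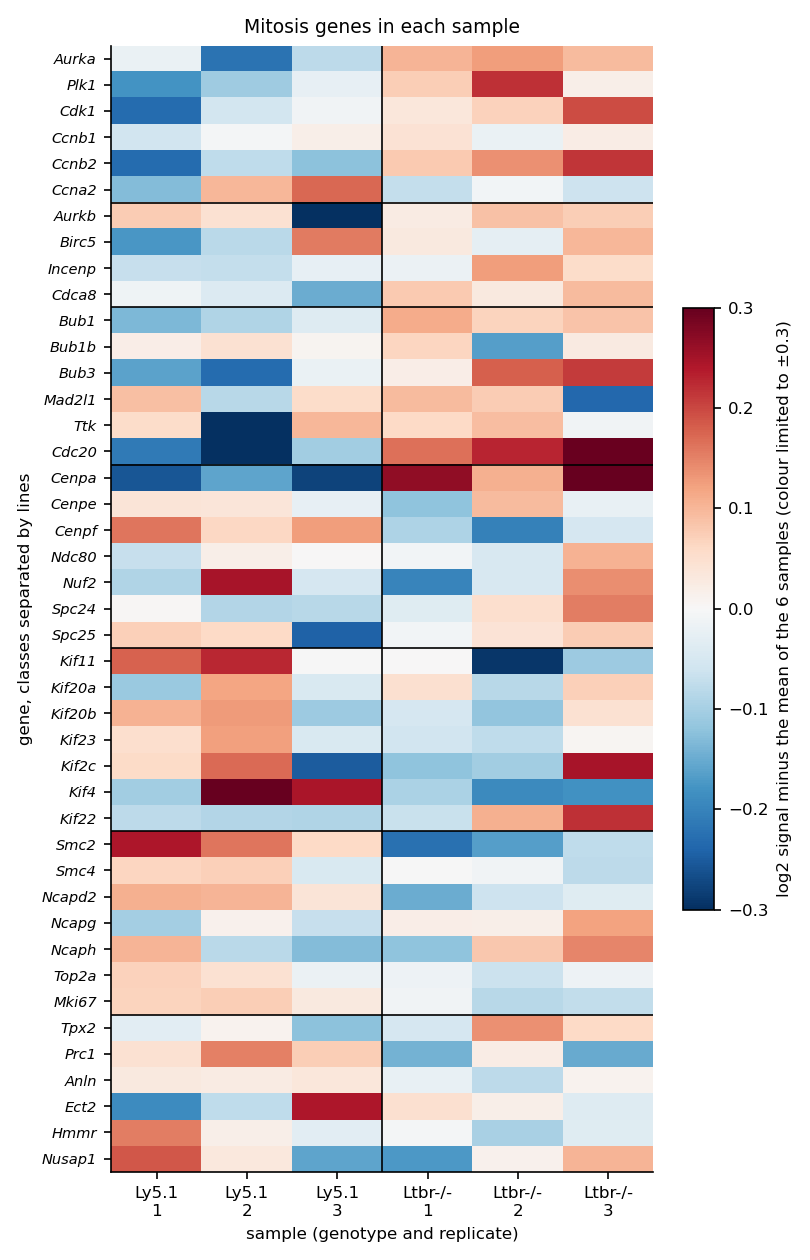
Log2 signal of each of the 43 mitosis genes (rows, by class) in each of the 6 samples (columns), as the deviation from the gene's mean over the 6 samples on a color scale. Rows such as *Cdc20* and *Cenpa* split by genotype, while no column is high or low throughout, with column means between −0.0309 and 0.0495.

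The difference of a mitosis gene followed the length of its transcript. Over the 43 genes, the correlation of the log2 difference with the log2 length of the longest protein-coding transcript (GENCODE M21) was −0.66 (Pearson) and −0.67 (Spearman). It was −0.40 (Pearson) over 11885 tested genes with a transcript. All genes share the same 6 libraries, so that these values are descriptions. The 14 shortest mitosis genes (1466 to 2695 bases) had a median difference of 0.13, with 13 above 0, 3 higher and 0 lower past the test. All tested genes of these lengths had a median of 0.02, with 12.2% higher and 2.22% lower. The 15 genes of middle length (2842 to 4086 bases) had a median of 0.02, with 1 higher and 0 lower, and all tested genes of these lengths had a median of −0.03, with 5.32% higher and 3.84% lower. The 14 longest (4316 to 11130 bases) had a median of −0.07, with 2 above 0, 0 higher and 3 lower, and all tested genes of these lengths had a median of −0.08, with 2.49% higher and 7.29% lower.

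*Cenpa* (1466 bases), *Ccnb2* (1531) and *Cdc20* (1793) were among the shortest genes, and *Kif11* (4819), *Kif4* (4983) and *Smc2* (5404) among the longest, with *Bub3* (3414) between them. The longest annotated transcript need not be the one expressed, and with the median length of a gene's transcripts the Pearson correlation was −0.59. After each sample was corrected for length and GC content with a loess curve, the correlation over the mitosis genes was −0.44 and that over all tested genes −0.07. The median differences of the 14 shortest, 15 middle and 14 longest genes were then 0.07, 0.06 and −0.01. By class, the median was 0.16 for the kinases and cyclins, 0.08 for the chromosomal passenger complex, 0.16 for the checkpoint genes and Cdc20 and 0.02 for the centromere and kinetochore. The classes below 0 moved to values close to 0, at −0.0145 for the kinesins, −0.0021 for condensin and chromosome structure and −0.0045 for the spindle and midzone genes. The 4 higher genes and *Smc2* remained past the test after this correction, with differences of 0.39 for *Cdc20*, 0.39 for *Cenpa*, 0.21 for *Ccnb2*, 0.30 for *Bub3* and −0.24 for *Smc2*. Whether length itself acts on these values was not tested.

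**Figure D4:**
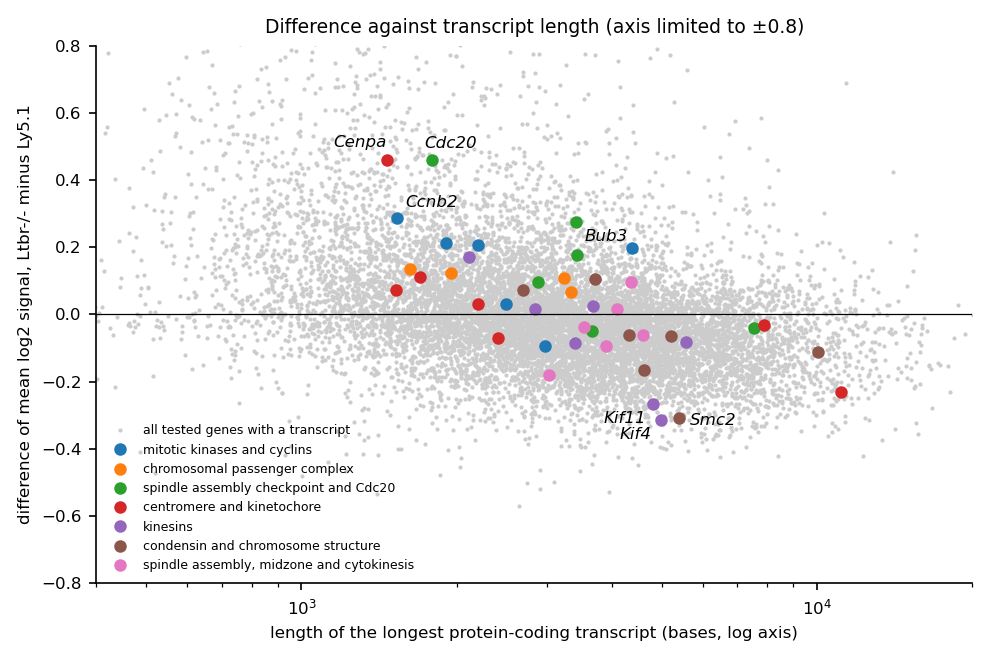
Difference of mean log2 signal (*Ltbr*-/- minus Ly5.1) against the length of the longest protein-coding transcript (bases, log axis) for the 43 mitosis genes, colored by class, and for all tested genes with a transcript (gray, vertical axis limited to 0.8 on either side). The 3 shortest genes past the test lie above 0 and the 3 longest below it, and the cloud of all genes slopes the same way (Pearson −0.40 over 11885 genes).

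Mitosis and cell cycle genes outside the 43 were described from 8 lists with 167 tested genes. Of these 167, 12 were higher in *Ltbr*-/- cells and 9 lower, with a median difference of −0.04. Over all tested genes, 10.6% were higher and 4.18% lower. The share of higher genes on the lists thus lay below that of all tested genes, and the share of lower genes near it. Of 17 tested genes on the list of the anaphase-promoting complex, 2 rose, namely its ubiquitin-conjugating enzymes *Ube2c* (0.43) and *Ube2s* (0.49). The median of the 13 core subunits was −0.08, none of them passed the test, and 2 had an unadjusted p under 0.05. The largest difference was that of *Pttg1*, the gene of securin, which inhibits separase and is a target of Cdc20. Its signal was 1708, 1716 and 1985 in *Ltbr*-/- cells and 878, 847 and 1262 in Ly5.1 cells, with no overlap between the groups (0.88, limma with Benjamini-Hochberg adjusted p = 3.48e-08). On the cohesin list, to which *Pttg1* belongs, 4 of 16 tested genes fell. They were the cohesin regulators *Pds5b* (−0.37) and *Pds5a* (−0.26), the subunit *Stag1* (−0.30) and the loader *Nipbl* (−0.23). With values corrected for transcript length and GC, *Pds5a* (−0.16, adjusted p = 0.138), *Stag1* (−0.22, adjusted p = 0.0607) and *Nipbl* (−0.13, adjusted p = 0.274) no longer passed.

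Of 3 genes particular to condensin II, *Ncaph2* was higher (0.27). Of 32 other centromere and kinetochore genes, *Casc5*, which codes for the kinetochore scaffold Knl1, was lower (−0.33), and none was higher. On the list of 29 other spindle, centrosome and cytokinesis genes, 4 were higher, all of them tubulin genes: *Tubb4b* (0.30), *Tubb6* (0.26), *Tuba1a* (0.23) and *Tubb5* (0.22). Some tubulin genes share sequence, with 68.1% of the windows of *Tuba1a* and 37.4% of those of *Tubb4b* found in other genes. The values of *Tuba1a* and *Tubb4b* are therefore uncertain. *Tubb5* and *Tubb6* shared 0% of their windows with other genes. Of 15 mitotic entry regulators, *Arpp19* (0.33) and *Gtse1* (0.32) were higher and 0 were lower, and of 20 DREAM, MuvB, FoxM1 and E2F regulators *Lin37* (0.33) was higher and *Mybl1* (−0.18) and *Rbl1* (−0.25) lower. Of 35 DNA replication genes, the origin recognition gene *Orc6* (0.30) was higher and the polymerase genes *Pola1* (−0.29) and *Pole* (−0.25) lower. Length ran with direction here too. The longest transcripts of the 12 higher genes had 1238 to 4046 bases and those of the 9 lower genes 4862 to 9423. With values corrected for length and GC, 9 of the 12 higher genes stayed past the test, among them *Pttg1* (0.82), and *Tuba1a* (0.17, adjusted p = 0.124), *Tubb6* (0.19, adjusted p = 0.178) and *Lin37* (0.21, adjusted p = 0.125) did not (limma, Benjamini-Hochberg). Of the 9 lower genes only *Pds5b* stayed past it (−0.28, adjusted p = 0.0147). Beside the cohesin genes given above, the calls of *Casc5* (adjusted p = 0.0545), *Pola1* (0.0824), *Rbl1* (0.112), *Pole* (0.161) and *Mybl1* (0.222) ended. In turn, 1 listed gene was higher past the test only after the correction, and 3 were lower. The higher one codes for a core subunit of the anaphase-promoting complex (0.30, adjusted p = 0.0154, limma with Benjamini-Hochberg).

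**Figure D5:**
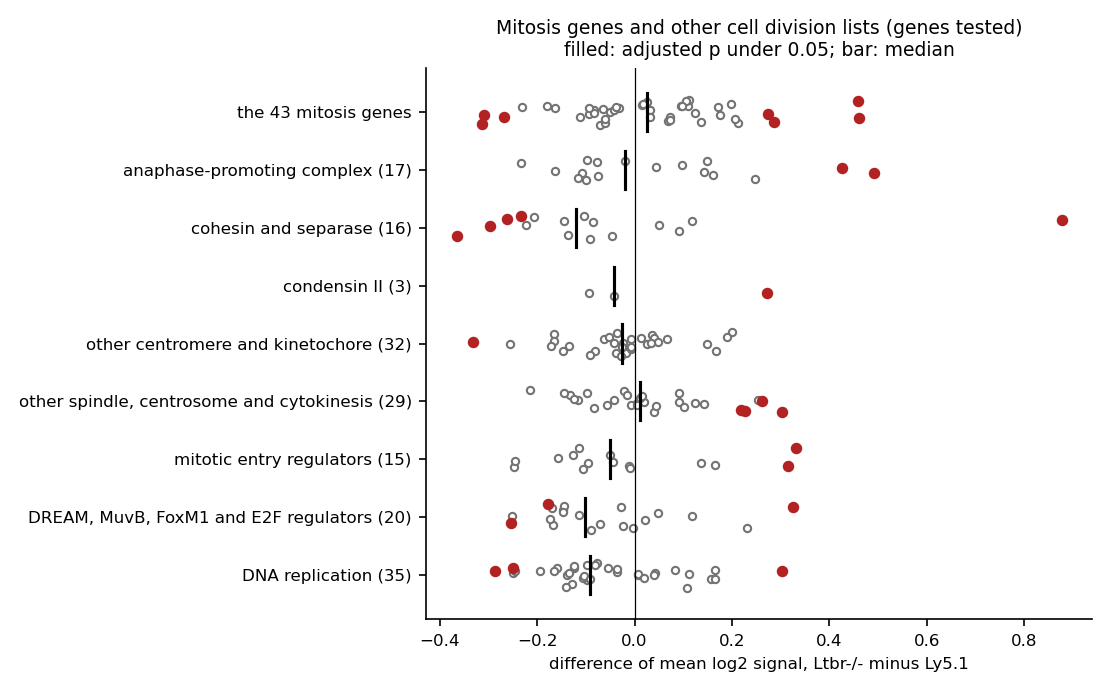
Difference of mean log2 signal (*Ltbr*-/- minus Ly5.1, horizontal axis) of the 43 mitosis genes and of the genes on 8 other mitosis and cell cycle lists (rows), 1 point per gene, with filled points for genes past an adjusted p of 0.05. Most points lie near 0, *Pttg1* stands out at 0.88, and the lists hold both higher and lower genes.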

How the data were processed

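RNA-seq of 3 *Ltbr*-/- and 3 Ly5.1 samples was analysed. Libraries were prepared with a stranded mRNA kit and sequenced as single reads of 76 bases. Assembly (SeqMan NGen) and quantification (ArrayStar) were done by the authors, and the submitters' processing notes name DESeq2 and the build GRCm38/mm10. The deposited files hold 1 signal per gene and sample, read here from its values as 2 to the power of a regularized log. Such values are scaled by size factors and shrunken, so that differences of weakly expressed genes are understated. The files give no counts. The paper reports read depth as an average per sample with its spread, so that the depth of each single sample is unknown. Precision rests on 3 replicates.

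Samples were grouped by genotype from the labels. Of 26595 rows per file, 379 repeats of a name were removed (the row with the highest mean was kept), which left 26216 names, 9034 of them constant. The upper 50% by mean (13108) were tested on log2 signal, with no pseudocount, by limma 3.58.1 in R 4.3.3 (lmFit, eBayes with trend, two-sided, Benjamini-Hochberg over all tested names). Thresholds were an adjusted p of 0.05 and, where stated, a fold of 1.5. The fits were tested on simulated data. Alternatives were the replicate block, other filters, scalings, variance models and a pseudocount, the loess correction (first degree, span 0.75; 90.7% of tested names had a transcript), the handling of repeated names and leaving out each sample. The median transcript length was added after seeing the data. Shared windows are runs of 76 bases of a gene's transcripts found in another gene.

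The members and lists were chosen with earlier results of these data known. Values in every sample are given for the genes past the test and for the largest difference in each direction within a class. The other genes with such values (*Aurkb*, *Mki67*, *Pttg1*) were chosen after their values were seen. Outside the 43 genes, *Ltbr*, marker genes and listed genes past the test are named.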

Additional observations from a re-analysis of the deposited data

How the results depend on the processing

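*Cdc20* and *Cenpa* passed the test in all 17 alternative fits, with adjusted p of at most 0.00270 and 0.00459 (limma, Benjamini-Hochberg). Of the 36 mitosis genes that did not pass, 30 passed in no alternative. The number of lower mitosis genes, 3, was 1 with no filter, 1 after the length and GC correction, 1 after that correction with the replicate block and 8 with quantile normalization, and 1 to 2 when 1 sample was left out. Without a trend it was 2, as *Kif11* and *Kif4* no longer passed and *Cenpf* did (adjusted p = 0.0493). The number of higher ones, 4, was 2 with quantile normalization, which ended the calls of *Ccnb2* (adjusted p = 0.0568) and *Bub3* (adjusted p = 0.0585), and 2 to 4 when 1 sample was left out. It was 5 after the length and GC correction with the replicate block, *Cdk1* being added (adjusted p = 0.0182). With a minimum log2 difference of 0.32 in place of the fold of 1.5, 2 were higher past both thresholds. Left-out samples gave 2 higher and 1 lower without *Ltbr*-/- replicate 3 or Ly5.1 replicate 1, and 3 higher and 1 lower without *Ltbr*-/- replicate 2 or Ly5.1 replicate 2. On the other lists, the count of lower genes, 9, was 4 with no filter, 4 after the correction (1 of the 9, *Pds5b*, and 3 that had not passed before), 4 with correction and block, 28 with quantile normalization and 2 to 11 when 1 sample was left out. *Bub1b* turned from −0.05 to 0.021 (adjusted p = 0.928) without *Ltbr*-/- replicate 2 and ranged down to −0.094 with other samples left out. Over all tested genes the count of lower calls, 548, was 355 with no filter, 914 with quantile normalization and 249 to 599 when 1 sample was left out. Why these counts moved was not tested. The deviations of same-numbered samples from their genotype means had correlations of 0.0314, −0.00520 and 0.0899 over all tested genes. These values cannot decide whether the numbers pair the samples, as a weak shared effect could leave correlations this small. With the replicate block, 4 mitosis genes were higher and 4 lower, *Cenpf* being added (adjusted p = 0.0448), and *Ltbr* differed by −4.47. The depth of each single sample is unknown, as only an average was reported, and precision rests on 3 replicates per genotype.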
